A study of Mus musculus with 6 samples.

Results

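The antibody chain and plasma cell genes were followed in skin of C3H/HeJ mice, an inbred strain in which the autoimmune hair loss alopecia areata can arise spontaneously. The 10 genes, Igha, Ighm, Jchain, Mzb1, Xbp1, Pou2af1, Derl3, Cd79a, Cd79b and Pigr, were taken by name from 18193 genes with a single-symbol probe set, and the arrays held 26 probe sets for them. They had been chosen by results of the same contrast, that is, with the log2 values of alopecic against unaffected arrays known. A group of 3 mice labelled with Alopecia Areata was sampled in affected alopecic skin, and a group of 3 mice labelled unaffected was sampled in skin. Each array held total RNA of a different mouse, and the labels used here name no treatment, allele, age or site on the body. Values are log2 RMA values, so a difference of 1 is a doubling of signal. A level can be compared between arrays for the same probe set, but not between probe sets.

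Plasma cells are the antibody-secreting end stage of the B cell lineage. They join heavy and light chains in the endoplasmic reticulum, which they enlarge under the transcription factor Xbp1, and export them. IgA and IgM are exported as polymers held together by the joining chain, encoded by Jchain. The polymeric immunoglobulin receptor, Pigr, carries such polymers across epithelia in the gut, airways and lactating mammary gland. Cd79a and Cd79b encode the signalling chains of the B cell receptor, and Pou2af1 a coactivator that binds with octamer factors at antibody gene promoters.

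Some arrays stood apart from others of their group. Unaffected replicate 3 correlated with unaffected replicates 1 and 2 at 0.929 and 0.906 across genes, which are not independent replicates, while those arrays correlated at 0.981. Its hair shaft markers averaged 4.98 over 5 genes, against 12.94 and 13.75 in unaffected replicates 1 and 2 and 10.97 to 11.87 in alopecic skin. Alopecic replicate 2 carried milk protein genes, whose values stand beside Pigr. Between the groups, markers of T cells averaged 7.49 to 8.42 over 6 genes in alopecic and 6.54 to 6.72 in unaffected skin. Of these genes 5 were higher in alopecic skin, while Cd4 was lower, at 6.05 to 6.13 against 6.15 to 6.43. None of the 6 passed the limma test described below, and 13.1% of all genes had groups that did not overlap. Cd4 lay below the array median on 4 arrays, and its difference was -0.16 (SE 0.12). The 4 measured B cell markers averaged 4.51 to 4.71 in alopecic and 4.56 to 4.64 in unaffected skin. All 4 lay below the array median on every array.

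Igha, the heavy chain of IgA, and Jchain were the members with large differences between mice. For the brightest Igha probe set the values were 12.35, 11.58 and 9.87 in alopecic replicates 1, 2 and 3, and 6.68, 9.81 and 6.79 in unaffected replicates 1, 2 and 3. All alopecic arrays lay above all unaffected arrays, but alopecic replicate 3 exceeded unaffected replicate 2 by only 0.06 on the log2 scale. Alopecic skin averaged 11.27 ± 1.27 and unaffected skin 7.76 ± 1.78 (SD, n = 3 mice each), which is a log2 difference of 3.51 (SE 1.05), or 11.4-fold. The other 2 Igha probe sets gave differences of 3.57 and 2.82. Alopecic replicate 1 stood 51.1-fold above unaffected replicate 1, the widest gap for this probe set.

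Jchain had values of 10.35, 9.76 and 8.03 in alopecic replicates 1, 2 and 3, and 4.79, 7.51 and 4.90 in unaffected replicates 1, 2 and 3. The 6 mice stood in the same order as for Igha, and again no alopecic array lay below an unaffected one. Alopecic skin averaged 9.38 ± 1.21 and unaffected skin 5.73 ± 1.54 (SD, n = 3 mice each), which is a log2 difference of 3.65 (SE 0.94), or 12.5-fold. Unaffected replicates 1 and 3 lay below their array medians of 6.11 to 6.17, where RMA compresses differences. In bulk skin, fewer plasma cells and less antibody RNA per cell cannot be told apart.

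**Figure D1:**
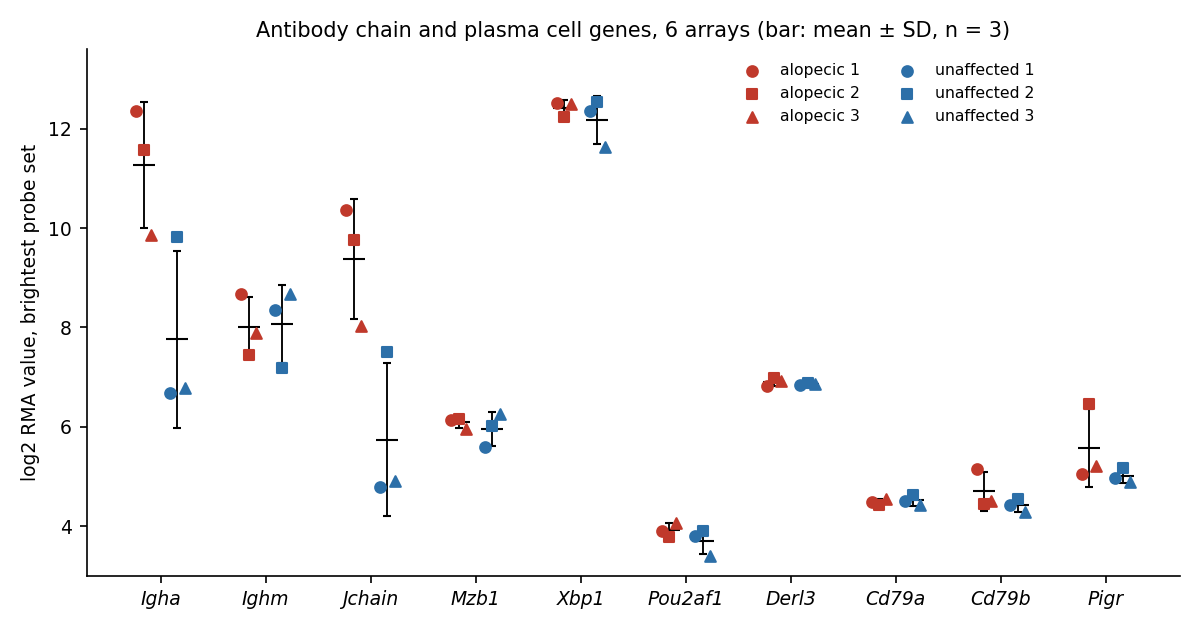
Log2 RMA value (y axis) of the brightest probe set of each of the 10 genes (x axis) on the 6 arrays. Points are single mice, with a marker shape for each replicate number, and bars give the mean ± SD of 3 mice. Igha and Jchain spread over more than any other member, with unaffected replicate 2 at 9.81 and 7.51, and only these genes have all alopecic arrays above all unaffected arrays.

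The spread within each group was large for these genes as well. In unaffected skin, replicate 2 had 8.75-fold and 8.12-fold more Igha signal than replicates 1 and 3, and 6.59-fold and 6.11-fold more Jchain signal. Within alopecic skin, replicate 1 exceeded replicate 3 by 5.61-fold for Igha and by 4.99-fold for Jchain. The pooled within-group SD of Igha, 1.55, was larger than that of 98.3% of the 18193 genes, and that of Jchain, 1.38, larger than that of 97.7%. By size of rise alone, 30 genes had a larger difference than Igha and 25 a larger one than Jchain.

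With single mice left out, the difference of Igha ran from 2.96 without alopecic replicate 1 to 4.53 without unaffected replicate 2, and that of Jchain from 3.16 to 4.54. Without unaffected replicate 3, the array with low hair genes, they were 3.02 and 3.23. None of the 10 members was among the 50 genes past the threshold of limma's moderated test (adjusted p of 0.05, Benjamini-Hochberg over all genes), where 0.275% of genes passed. At an unadjusted p under 0.05 the count was 2 of 10, where 7.15% of all genes passed. These counts come from the contrast that chose the members, so, like the differences, they are a description that supports nothing, and no member's own p is printed.

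The profiles of Igha and Jchain over the 6 mice were almost the same. Likeness was measured as the root mean square distance between log2 profiles, each centred on its mean over 6 arrays, and each was the nearest of all genes to the other, at 0.16. For both, Lcn2, an antimicrobial iron-binding lipocalin of epithelia and neutrophils, came next, at 0.62 from Igha and 0.51 from Jchain. Clec7a, the beta-glucan receptor dectin-1 of myeloid cells, followed at 0.99 and 0.88. Lcn2 stood at 10.96, 10.05 and 9.19 in alopecic and 6.17, 7.42 and 5.22 in unaffected replicates 1, 2 and 3. Clec7a separated from Igha in unaffected replicate 2, at 6.10 against 6.01 and 5.35 in unaffected replicates 1 and 3.

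Antibodies also need a light chain, and in mice most carry kappa. The kappa constant region was covered only by 3 probe sets that the annotation assigns to several kappa genes each, so they name no single gene, and they were chosen after their values were seen. In the brightest of them the values were 12.40, 12.06 and 10.62 in alopecic replicates 1, 2 and 3, and 5.67, 10.01 and 6.52 in unaffected replicates 1, 2 and 3. Unaffected replicate 2 was again the high unaffected mouse. Their distances from the Igha profile were 0.34, 0.57 and 0.83. The other 10 antibody probe sets with several symbols stayed dim, between 3.59 and 5.04 on all arrays.

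**Figure D2:**
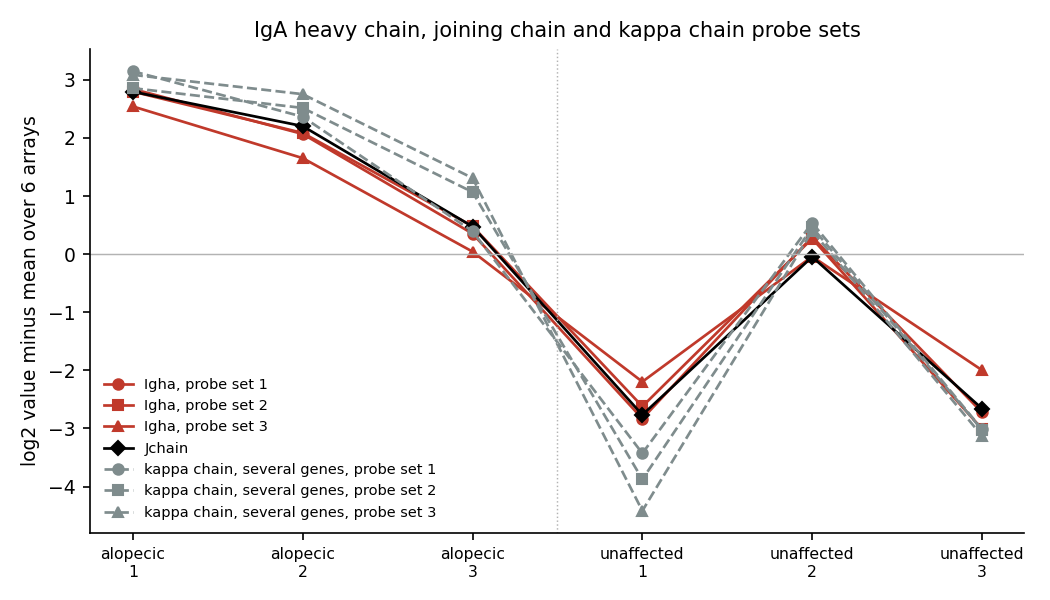
Log2 value minus the mean over 6 arrays (y axis) for the 3 Igha probe sets, Jchain and the 3 kappa chain probe sets with several genes, by array (x axis, alopecic left and unaffected right of the dotted line). The lines run together: high in alopecic replicates 1 and 2, near the mean in unaffected replicate 2 and lowest in unaffected replicates 1 and 3.

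Ighm, the heavy chain of IgM, did not share this profile, at a distance of 2.40 from Igha, with 16745 genes closer to Igha. Its brightest probe set had values of 8.66, 7.45 and 7.89 in alopecic replicates 1, 2 and 3, and 8.34, 7.18 and 8.67 in unaffected replicates 1, 2 and 3. The groups overlapped, unaffected replicate 2 was the lowest mouse, and the difference was -0.06 (SE 0.49). Its sign turned with single arrays, from -0.51 without unaffected replicate 2 to 0.24 without unaffected replicate 3. The other well-measured probe set of Ighm differed by -0.44, with unaffected replicate 3 highest at 9.38. The remaining 9 of 11 Ighm probe sets lay between 4.04 and 6.91, spanned at most 0.76 over the 6 mice and differed by -0.13 to 0.18.

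The genes nearest to the Ighm profile were Cryab, a small heat shock protein abundant in muscle, at 0.19, Cfl2, the muscle form of cofilin, at 0.19, and the aldo-keto reductase gene Akr1b10 at 0.21. Skeletal muscle markers, Acta1, Ckm and Mylpf, averaged 14.14, 13.75 and 13.09 in alopecic replicates 1, 2 and 3, and 13.93, 11.82 and 14.67 in unaffected replicates 1, 2 and 3. They were thus lowest in unaffected replicate 2 and highest in unaffected replicate 3, as Ighm was. For Ighm this order held near ties. In the brightest probe set alopecic replicate 1 stood at 8.66 and unaffected replicate 3 at 8.67. In the other well-measured probe set alopecic and unaffected replicate 2 both stood at 6.915. The part of muscle content in the Ighm values was not tested.

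Pigr was high in 1 mouse. Its brightest probe set had values of 5.04, 6.46 and 5.21 in alopecic replicates 1, 2 and 3, and 4.97, 5.17 and 4.89 in unaffected replicates 1, 2 and 3. The second probe set stood at 6.98 in alopecic replicate 2 and between 4.68 and 4.79 in the other 5 mice. Outside alopecic replicate 2 both probe sets lay below the array median. The differences between the groups, 0.56 (SE 0.39) and 0.77, therefore rest on that mouse, and the first was 0.11 without it.

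Alopecic replicate 2 also held milk protein transcripts. The casein genes Csn2 and Csn1s1 stood at 9.69 and 10.22 there, and between 3.86 and 4.19 and between 4.28 and 4.85 in the other 5 mice. Ltf, the milk and neutrophil protein lactoferrin, stood at 9.36, against 4.43 to 5.48 elsewhere. The list for mammary and glandular epithelium held 10 measured genes. Of these, Wap and Lalba, which encode whey proteins, lay below the array median on all arrays, with Lalba at 5.66 in alopecic replicate 2. Wap was lower in all alopecic arrays, at 4.37 to 4.44, than in unaffected arrays, at 4.53 to 4.65. Elf5 was highest in unaffected replicate 2, at 9.29. Aqp5 was highest in unaffected replicate 3, at 7.15, against 6.71 in alopecic replicate 2. All list genes other than Wap, Elf5 and Aqp5 were highest in alopecic replicate 2. The list averaged 8.27 in alopecic replicate 2, 5.38 and 6.03 in the other alopecic mice and 5.01 to 6.50 in unaffected mice. The part of glandular tissue in the Pigr values was not tested.

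The genes nearest to Pigr were Krt19, a keratin of simple and glandular epithelia, at 0.13, the AP-1 subunit gene Fosl1 at 0.16 and Foxa1, a transcription factor of glandular epithelia, at 0.16. Pigr lay at 1.94 from Igha, with 1034 genes closer to Igha. Pigr spanned 1.57 over the 6 mice, against 5.67 for Igha, so this distance mainly reflects the spread of Igha itself. Igha was high in alopecic replicate 1, at 12.35, where Csn2, Csn1s1 and Pigr stood at 3.86, 4.28 and 5.04. The casein gene Csn3 was high in alopecic replicate 2, at 11.03, and also in unaffected replicate 2, at 9.24, and alopecic replicate 3, at 7.47, while it stood between 4.02 and 5.20 in the other 3 mice. Without alopecic replicate 2 the differences of Igha and Jchain were 3.35 and 3.46.

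**Figure D3:**
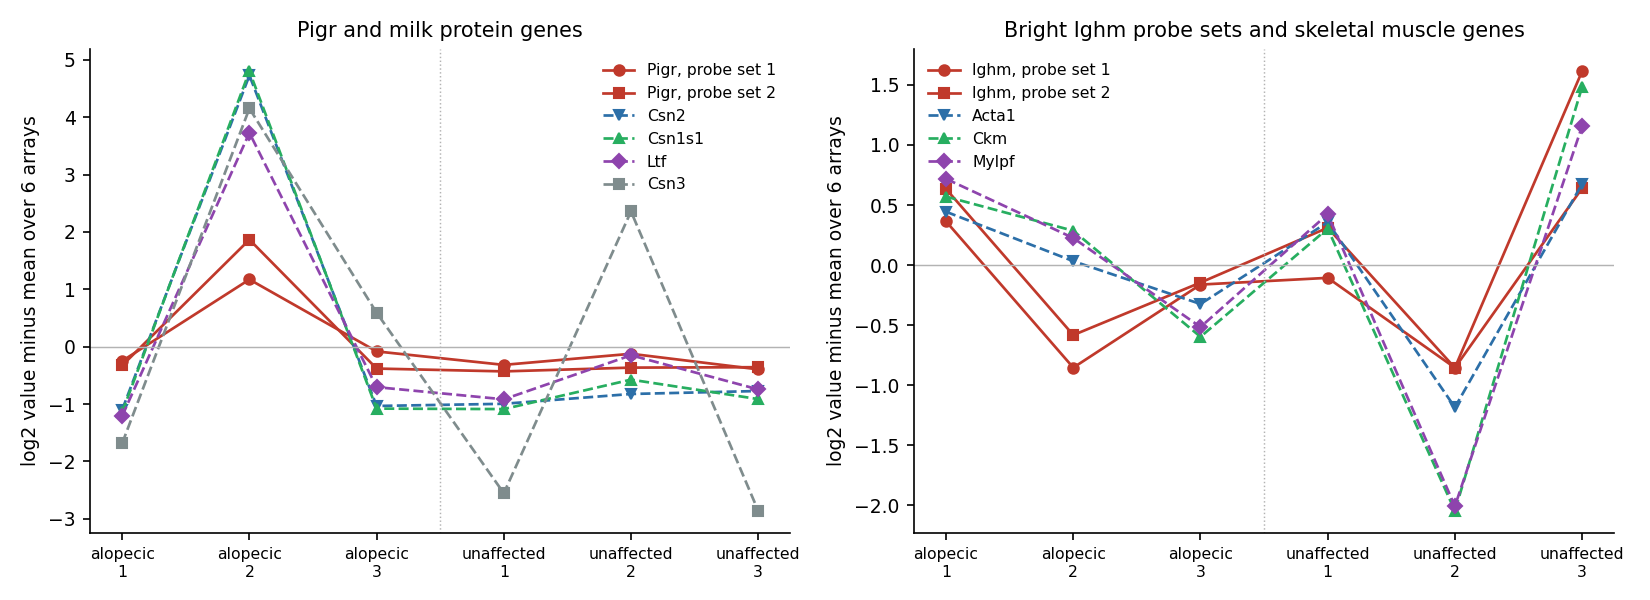
Log2 value minus the mean over 6 arrays (y axis) by array (x axis, alopecic left and unaffected right of the dotted line). Left, both Pigr probe sets with 4 milk protein genes, where Pigr, Csn2, Csn1s1 and Ltf stand out in alopecic replicate 2. Right, the 2 bright Ighm probe sets with 3 skeletal muscle genes, all lowest in unaffected replicate 2 and highest in unaffected replicate 3.

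The genes of the secretory machinery among the members were nearly level. Xbp1, which drives expansion of the endoplasmic reticulum, was bright, with 12.51, 12.24 and 12.51 in alopecic and 12.35, 12.55 and 11.64 in unaffected replicates 1, 2 and 3. Unaffected replicate 3 was low and the others overlapped, and the difference was 0.24 (SE 0.26). Its other 3 probe sets differed by -0.16, 0.06 and 0.21. Derl3, a derlin that moves misfolded proteins out of the endoplasmic reticulum, spanned 0.17 over all 6 mice, with a difference of 0.05 (SE 0.10). Mzb1, a chaperone of antibody assembly, stood at 6.14, 6.15 and 5.96 in alopecic and 5.60, 6.01 and 6.26 in unaffected replicates 1, 2 and 3. Its difference was 0.13 (SE 0.19). Mzb1 lay below the array median on 4 of the 6 arrays, and Derl3 not far above it, between 6.81 and 6.98. A real difference in either gene may thus not be detectable. Over the 6 mice Xbp1 spanned 0.91 and Mzb1 0.66, against 5.67 for Igha, and for genes that vary so little the distance from Igha mainly reflects the spread of Igha itself.

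The B lineage members stayed below the array median on every array. Cd79a ran from 4.42 to 4.63 and differed by -0.03 (SE 0.11), and Pou2af1 ran from 3.39 to 4.07 and differed by 0.21 (SE 0.17). Cd79b stood at 5.15 in alopecic replicate 1 and between 4.28 and 4.54 in the other mice, with a difference of 0.28 (SE 0.22). At such signals a real difference may not be detectable on these arrays. Over all 26 member probe sets, 4 had every alopecic array above every unaffected array, the 3 of Igha and that of Jchain, and 0 had the reverse, where 5.79% and 6.22% of all single-symbol probe sets did. The median difference of the 10 members was 0.23, against -0.0078 over all genes.

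The stretches upstream of 3 members are shown because Jchain varied with Igha, Pigr stood apart in 1 mouse, and Pou2af1 alone held a searched motif. They come from RefSeq promoters of GRCm38.p6, cover 250 bases before the start and were found for 6 members, while Igha, Ighm, Mzb1 and Cd79b were not matched. Motifs were searched on both strands and are in capitals.
Jchain, chr5:88527898-88528147, minus strand: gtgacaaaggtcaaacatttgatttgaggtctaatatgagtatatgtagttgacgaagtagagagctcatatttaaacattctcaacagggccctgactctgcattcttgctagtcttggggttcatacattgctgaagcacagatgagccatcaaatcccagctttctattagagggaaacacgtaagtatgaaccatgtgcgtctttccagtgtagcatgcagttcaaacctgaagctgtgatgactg
Pigr, chr1:130826434-130826683, plus strand: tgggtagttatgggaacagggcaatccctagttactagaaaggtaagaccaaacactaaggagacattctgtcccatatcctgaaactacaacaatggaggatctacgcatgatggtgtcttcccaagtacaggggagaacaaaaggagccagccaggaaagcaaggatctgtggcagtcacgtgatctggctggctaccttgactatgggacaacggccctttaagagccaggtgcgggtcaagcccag
Pou2af1, chr9:51213440-51213689, plus strand: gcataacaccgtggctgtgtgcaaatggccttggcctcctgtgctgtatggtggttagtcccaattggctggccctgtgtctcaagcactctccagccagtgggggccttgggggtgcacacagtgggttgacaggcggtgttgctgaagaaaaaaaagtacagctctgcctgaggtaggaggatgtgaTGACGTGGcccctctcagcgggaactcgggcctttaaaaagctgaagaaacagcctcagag
The Xbp1 site TGACGTGG was present in the Pou2af1 stretch, starting 61 bases before the start, and in 0.563% of 32851 promoter stretches of that length. The octamer ATGCAAAT, present in 1.6% of them, and the interferon-stimulated response element GAAANNGAA, present in 7.13%, had no match in the 6 members. A match describes letters only, and the site in Pou2af1 was the only match found in the 6 members.

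Other genes of the pathway were taken as 7 lists without the members and tested by limma. The counts at an unadjusted p under 0.05 are to be set against the 7.15% of all genes that reached it. The B cell list had 0 of 20 measured genes past the threshold and 0 with an unadjusted limma p under 0.05, and its median difference was -0.04. Its brightest genes were Blnk, an adaptor of B cell receptor signalling, at -0.17 (SE 0.37), and the repressor Bach2 at -0.22 (SE 0.73). The widest differences were those of Cd72, an inhibitory coreceptor, at 0.57 (SE 0.33), and of Tnfrsf13c, the receptor for the survival factor BAFF, at -0.47 (SE 0.37).

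Of 18 other antibody chains with a single symbol, limma called 0, with 2 at an unadjusted p under 0.05, and their median was 0.08. In 16 of them all arrays lay below the array median. The exceptions were Ighg3, a heavy chain of IgG, at -0.18 (SE 0.13), and the kappa variable gene Igkv8-30. Igkv8-30 stood at 9.10, 7.88 and 6.49 in alopecic and 5.85, 6.81 and 6.06 in unaffected replicates 1, 2 and 3. Unaffected replicate 2 was again the highest unaffected mouse, the groups overlapped, and its difference was 1.58 (SE 0.68, limma adjusted p = 0.736). The 2 chains at an unadjusted limma p under 0.05 went in opposite directions at dim values. The lambda variable gene Iglv1 differed by 0.37 (SE 0.14), and a kappa variable gene outside the naming rule, added after its values were seen, by -0.29 (SE 0.11). In 1 chain all alopecic arrays were higher and in 2 all were lower, while 13.1% of all genes had groups that did not overlap.

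In the plasma cell list limma called 0 of 13 measured genes, with 2 at an unadjusted p under 0.05, and the median was 0.16. Slamf7, a receptor of plasma cells and cytotoxic lymphocytes, differed by 0.84 (SE 0.21, limma adjusted p = 0.442) and Cd27, a costimulatory receptor, by 0.46 (SE 0.13, limma adjusted p = 0.516). Both were higher in 3 of 3 alopecic mice than in any unaffected mouse, where 13.1% of all genes had groups that did not overlap. Cd27 lay below the array median on all arrays and Slamf7 on 3. Sdc1, the plasma cell marker syndecan-1 that keratinocytes also express, differed by 0.43 (SE 0.18), and the signal peptidase subunit Sec11c by 0.16 (SE 0.26). Of the secretory pathway and unfolded protein response, 0 of 25 genes were called by limma and 0 had an unadjusted p under 0.05, with a median of 0.20. Without unaffected replicate 3 this median was 0.048, and that of the plasma cell list was 0.063. The chaperones Hspa5 and Calr differed by 0.03 (SE 0.17) and 0.32 (SE 0.24), the disulphide isomerase Pdia6 by 0.54 (SE 0.32), and Herpud1, a factor in disposal of misfolded proteins, by -0.69 (SE 0.35). In unaffected replicate 3 Calr and Pdia6 had their lowest values, 12.18 and 9.79, and Herpud1 its highest, 11.55.

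Among 17 measured genes of antibody switching, homing and survival, limma called 0, with 2 at an unadjusted p under 0.05, and the median was 0.10. Tgfb1, a switch factor for IgA, stood at 6.93, 6.61 and 6.63 in alopecic and 6.03, 6.08 and 5.29 in unaffected replicates 1, 2 and 3. It differed by 0.93 (SE 0.25, limma adjusted p = 0.474), and Cd40, the receptor for T cell help, by 0.90 (SE 0.22, limma adjusted p = 0.411). For both genes the groups did not overlap, which held for 13.1% of all genes. The chemokines Cxcl12 and Cxcl13 differed by 0.28 (SE 0.47) and -0.46 (SE 1.14), and Cxcl13, which attracts B cells, was highest in unaffected replicate 2, at 9.50.

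Among 11 antibody receptors limma called 0, with 2 at an unadjusted p under 0.05, and the median was 0.14. Trim21, an intracellular antibody receptor, differed by 1.59 (SE 0.23, limma adjusted p = 0.0959) and Fcgr4, a receptor for IgG, by 1.90 (SE 0.47, limma adjusted p = 0.413). Each had all alopecic mice above all unaffected mice, where the groups did not overlap in 13.1% of all genes. Fcgrt, the neonatal receptor that recycles IgG, and the IgG receptor Fcgr3 differed by -0.38 (SE 0.26) and 0.45 (SE 0.62).

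Known inducers of Pigr were the exception, with 2 of 16 measured genes risen, where 0.275% of all genes were called in either direction. Irf1, the interferon-responsive factor that acts on the Pigr gene, stood at 11.82, 11.61 and 11.60 in alopecic and 8.50, 8.84 and 8.90 in unaffected replicates 1, 2 and 3, a rise of 2.93 (SE 0.15, limma adjusted p = 0.00607). Ifng, interferon gamma, rose by 2.24 (SE 0.25, limma adjusted p = 0.0494) with dim unaffected values. Both were higher in every alopecic mouse than in any unaffected mouse, where the groups did not overlap in 13.1% of all genes. Pigr stood above the array median in alopecic replicate 2 alone, and its relation to these genes was not tested. Irf1 lost its call without unaffected replicate 2 (limma adjusted p = 0.0679), and Ifng lost it with any array but alopecic replicate 1 left out (limma adjusted p from 0.104 to 0.233). Over the list the median was 0.25, and 5 genes had an unadjusted p under 0.05.

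**Figure D4:**
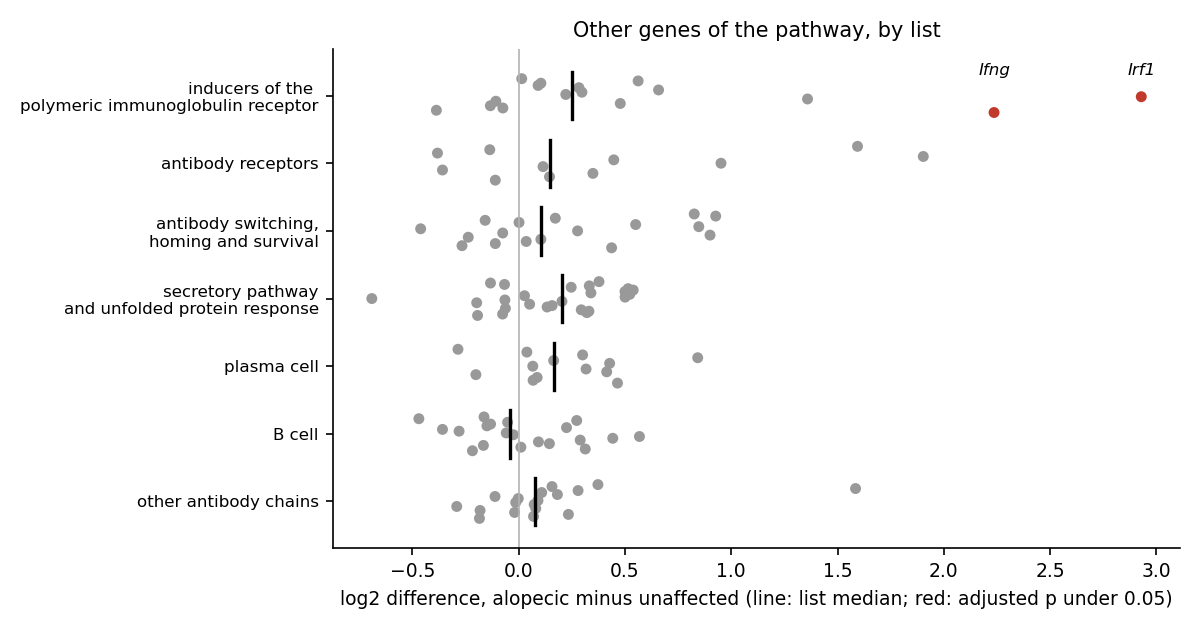
Log2 difference, alopecic minus unaffected (x axis), of each measured gene of the 7 pathway lists (y axis). Each point is a gene, red where the limma adjusted p is under 0.05, and the vertical line is the list's median. The medians lie between -0.04 and 0.25, and Irf1 and Ifng are the only genes past the threshold.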

How the data were processed

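Per the labels, total RNA from the skin of 6 mice was hybridised to 1 oligonucleotide array each. The values the authors deposited are log2 signals of probe sets, made with RMA per the submitters' processing notes, which correct background, normalize arrays to each other and summarise probes; neither its version nor a genome build is named in the labels used here. Of 45101 probe sets, 34945 had 1 gene symbol in the platform annotation, and symbols were updated through RefSeq gene identifiers of GRCm38.p6, which matched for 34741. Each of 18193 genes was represented by its probe set with the highest mean over 6 arrays, with no filter on dim signal. Alopecic and unaffected skin, 3 arrays each, were compared with limma 3.58.1 in R 4.3.3 (lmFit, eBayes, two-sided), adjusted by Benjamini-Hochberg over all genes. The fit was tested on simulated data with independent noise for each gene. Such data hold no array that deviates across many genes, so the test does not cover that case. "Rose" refers to an adjusted p under 0.05. An array has no read depth, and 3 arrays per group limit precision.

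The members and lists were chosen with earlier results of these data known. All members are described. Of each list, called genes are named, and otherwise the 2 brightest and the 2 with the widest difference. For members spanning at least 1 log2 unit, the 3 nearest genes by centred profile are given. List entries without a matched single-symbol probe set are not analysed here. Same-numbered arrays deviated from their group means with correlations of -0.13, -0.20 and -0.33 and come from separate mice, so the numbers do not pair them. Alternatives left out each array, used the replicate block, averaged probe sets, kept only probe sets ending in _at alone, left out dim genes, repeated quantile normalization and changed the variance prior.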

Additional observations from a re-analysis of the deposited data

Results flagged for a closer look

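The kappa chain probe sets with several genes lie outside the test of genes, and in 2 of them every alopecic array lay above every unaffected array and above the array median. Of all single-symbol probe sets, 5.79% had every alopecic array above every unaffected array. The kappa probe sets were chosen after their values were seen, so this count is a description only. The brighter of them averaged 11.69 ± 0.95 over alopecic and 7.40 ± 2.30 over unaffected mice, and the dimmer averaged 11.59 ± 0.94 and 6.83 ± 2.49 (SD, n = 3 mice each). In the remaining probe set, alopecic replicate 3 at 8.82 lay below unaffected replicate 2 at 8.97. Groups of 3 arrays are too small for a check of single arrays.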

How the results depend on the processing

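The count of changed genes over the whole table was 50 (48 higher, 2 lower). It ran from 4 without unaffected replicate 2 to 39 without unaffected replicate 3 when arrays were left out, and was 39 to 61 under the alternatives of probe set, filter, normalization and variance prior. With the replicate block it was 0, with Irf1 and Ifng at limma adjusted p = 0.144 and 0.375, but the numbers do not pair the mice. Ifng was also lost with averaged probe sets and with probe sets ending in _at alone (limma adjusted p = 0.0502 and 0.0525). The causes were not tested. The medians of the 7 lists moved by less than the spread between replicates under all alternatives run, except the B cell list with dim genes left out, at -0.192 over 2 genes. That spread exceeded the median itself in every list but that of Pigr inducers, as with 0.67 against 0.14 for antibody receptors. Signs also turned. Antibody receptors reached -0.052 without alopecic replicate 1, and switching, homing and survival -0.008 without unaffected replicate 3. The other antibody chains reached -0.008 with probe sets ending in _at alone, and the B cell list 0.016 without unaffected replicate 1. Outside the list of inducers of Pigr no listed gene was called in any alternative. The differences of Igha and Jchain stayed between 2.96 and 4.54 and those of the other members moved by less than their within-group SD. Igha and Derl3 have no probe set ending in _at alone, and of the members only Igha, Ighm and Xbp1 have a value with dim genes left out, where the other antibody chains list has none. Signals below the array median limit what can be said of Cd79a, Cd79b, Pou2af1, Mzb1 and Pigr.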

Other observations

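Genes of simple epithelium varied between the mice in another pattern. Krt8 and Krt18, the keratins of simple and glandular epithelia, stood at 9.16 and 8.40 in alopecic replicate 2, at 9.14 and 7.92 in alopecic replicate 3 and at 8.70 and 7.29 in unaffected replicate 2. In the other 3 mice Krt8 lay between 5.57 and 7.53 and Krt18 between 4.73 and 5.86. The same 3 mice were those with the highest Csn3, and all 3 had Igha values of at least 9.81, while alopecic replicate 1 had the highest Igha with Krt18 at 5.86.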
